A study of Bos taurus with 14 samples.

Results

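Circulating and leucocyte levels of miR-146a, miR-146b, miR-147 and miR-155 were examined in cows before and after a change to a grain-rich diet. The members were taken by name, as bta-miR-146a, bta-miR-146b, bta-miR-147 and bta-miR-155, which makes 4 of the 932 miRNA names with reads in the series. All 4 names had reads in all 14 libraries. The animals were non-lactating Holstein cows with a rumen cannula, each sampled first on a forage diet without concentrate (FD, 0% concentrate) and then in week 1 of high-grain feeding (HG, 65% concentrate). Small RNA libraries were made from cell-free plasma of 4 cows (4 FD and 4 HG libraries) and from the buffy coat leucocytes of cows 1, 3 and 4 (3 FD and 3 HG libraries). Every cow received FD first, so diet and time cannot be told apart, and no animal stayed on FD as a control.

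A miRNA is a short RNA that pairs through its seed, a stretch near its 5′ end, with messenger RNAs and lowers their translation or stability. The miRNAs described here are known for being induced when the receptors for bacterial products on macrophages and other leucocytes are engaged and NF-κB is activated. miR-146a and miR-146b share their seed and repress the adaptor proteins IRAK1 and TRAF6, which closes a negative feedback loop on this signalling. miR-147 is likewise induced by Toll-like receptor ligands and dampens the cytokine response. miR-155 represses SHIP1 and SOCS1 and acts mostly in the opposite, inflammation-promoting direction, also in lymphocytes.

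In the UMD3.1 build used for the files, bta-miR-146a is given at chr7:74185055-74185078 on the plus strand, and bta-miR-146b at chr26:22930915-22930938 on the plus strand. bta-miR-147 is given at chr10:65243426-65243447 on the minus strand, and bta-miR-155 at chr1:10227279-10227301 on the minus strand. In the RefSeq gene table (assembly ARS-UCD2.0), used for names and neighbours alone, the miR-147 gene lies within C10H15orf48, while the other genes overlap no other gene and have PTTG1 (miR-146a), C26H10orf95 (miR-146b) and MRPL39 (miR-155) as the nearest protein-coding gene.

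The plasma libraries held 376589 to 4464702 miRNA reads and the leucocyte libraries 21764579 to 66070770, so that 3 reads correspond to 0.672 to 7.97 RPM (reads per 1000000 miRNA reads) in plasma and to 0.0454 to 0.138 RPM in leucocytes. The number of reads behind a member followed this gap. bta-miR-147 rested on 271 to 1417 reads in leucocytes and on 17 to 1403 in plasma, and bta-miR-146a on 27290 to 78914 and on 734 to 3433. The plasma libraries also differed by diet. There, miRNA reads made up 39.3% to 58.1% of all reads on FD and 59.3% to 72.0% on HG. Names with reads numbered 410 to 454 on FD and 504 to 538 on HG. The part of this in the plasma diet values was not tested. Plasma and leucocyte RNA were extracted with different kits, so that sample type and extraction cannot be told apart. Of the marker miRNAs, the lymphocyte pair (miR-150 and miR-342) summed to 7669 to 15439 CPM in leucocytes (counts per 1000000 after scaling with TMM, the trimmed mean of M-values) and myeloid miR-223 to 5054 to 7729, next to 154081 to 304180 for the erythroid miRNAs miR-451, miR-144 and miR-486. Erythroid miRNAs thus took a large share of the leucocyte reads, and a lower level in such bulk samples can come from fewer cells of a type or from less RNA per cell, which cannot be told apart. These sums are counts at the bovine names alone, where a read shared with a human name is divided between them. miR-451, miR-486 and miR-150 also have human names with reads, so the marker sets are not on 1 scale.

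The deposited tables list reads under bovine and under human names, and a read that matched several names was divided among them in the adjusted count. bta-miR-146a had no human name with reads and kept 81.6% to 99.9% of its reads in the adjusted count. bta-miR-146b had the same reads as hsa-miR-146b-5p in 14 of 14 libraries and kept 38.4% to 49.6%, since some reads also matched miR-146a. bta-miR-155 kept 50% in every library, next to hsa-miR-155-5p. bta-miR-147 kept 50% in 13 libraries, next to hsa-miR-147b-3p, but 98.9% in the FD leucocyte library of cow 1, where the human name was given 16 reads and the bovine name 761. Such a shift of over 1.5-fold from a name's median share was found for 3 of 266 bovine names with at least 100 reads in every leucocyte library, bta-miR-147 among them. A single library's adjusted count of bta-miR-147 is thus on another scale than the other 13, and its diet values are given both ways below.

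**Figure D1:**
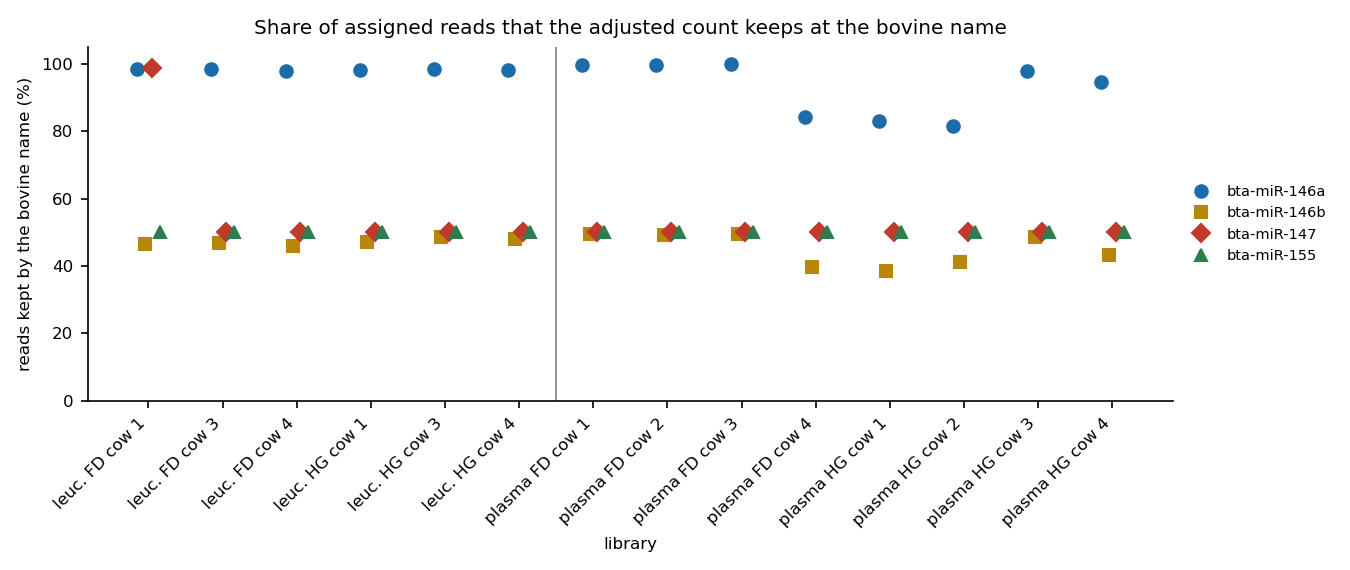
Share of the reads assigned to each bovine name (y axis, %) that remains in its adjusted count, for the 6 leucocyte and 8 plasma libraries (x axis), with 1 symbol per miRNA. bta-miR-147 sits at 50% in 13 libraries and at 98.9% in the FD leucocyte library of cow 1, while bta-miR-146a stays at 81.6% or above.

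To compare levels between the miRNAs, each read was counted once by summing the bovine and the human name, and expressed as RPM. In leucocytes, miR-146a was the highest, with 1260 ± 602 RPM (SD, n = 6 libraries of 3 cows), followed by miR-155 with 436 ± 111, miR-146b with 184 ± 76.4 and miR-147 with 13.4 ± 5.90. This order held in 6 of 6 leucocyte libraries. miR-146a exceeded miR-155 by 1.89- to 3.71-fold within a library, miR-146b by 3.86- to 11.0-fold and miR-147 by 52.6- to 192-fold. Among the 553 to 626 bovine names with reads in a leucocyte library, bta-miR-146a ranked 53rd to 74th and bta-miR-147 177th to 230th.

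Plasma had no such fixed order. miR-146a averaged 963 ± 443 RPM (SD, n = 8 libraries of 4 cows), miR-155 548 ± 377, miR-147 236 ± 307 and miR-146b 231 ± 151, and the 8 libraries showed 6 different orders. Only miR-146a above miR-146b held in all 8, by 1.91- to 15.2-fold. miR-155 was the highest of the 4 in cow 4 on FD and in cow 1 on HG. miR-147 was the highest in cow 2 on FD, at 982 RPM against 706 for miR-146a, and in the other 7 libraries it lay between 45.1 and 203 RPM. The ranges of miR-155 (74.2 to 1269 RPM), miR-147 (45.1 to 982) and miR-146b (67.2 to 492) overlapped, and miR-155 was above miR-147 in 7 of 8 libraries and above miR-146b in 5 of 8.

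The 2 sample types were compared in cows 1, 3 and 4 (12 libraries) with edgeR's quasi-likelihood test on the adjusted counts. Here 52.4% of the 794 names tested differed at an adjusted p below 0.05, and the median of all names was a log2 value of -1.77 (plasma over leucocytes), or -0.26 with library totals in place of TMM scaling. bta-miR-147 was higher in plasma by 2.02 on the log2 scale (SE 0.637, adjusted p = 0.0186) and by 3.47 with library totals (adjusted p = 6.31e-04). With the bovine and human names summed, which counts its reads alike in all libraries, it was 2.80 (SE 0.576, adjusted p = 0.00222). The median of all names also moved in that fit, to -1.23, and bta-miR-147 lay 4.03 above it. The call in the adjusted counts was lost without cow 1 (2.13, adjusted p = 0.0508). bta-miR-146a was lower in plasma by a log2 value of -1.68 (SE 0.229, adjusted p = 9.16e-05), which was close to the median of all names. Library totals brought it to -0.10 (adjusted p = 0.800), and without cow 4 it was -0.88 (adjusted p = 0.0606). bta-miR-146b gave -1.10 (SE 0.427, adjusted p = 0.0459) and bta-miR-155 -0.74 (SE 0.480, adjusted p = 0.207), and both turned positive with library totals, to 0.47 (adjusted p = 0.446) and 0.69 (adjusted p = 0.204). The call of bta-miR-146b was lost in each of 6 alternatives, at adjusted p = 0.145 to 0.575. Set against the median of all names, bta-miR-146a lay 0.09 above it, bta-miR-146b 0.67, bta-miR-155 1.03 and bta-miR-147 3.79, and with library totals these distances were 0.16, 0.73, 0.95 and 3.73.

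The main question was whether the level of these miRNAs changed with the diet. In leucocytes bta-miR-146a fell on HG to 0.560-fold, its relative bta-miR-146b did not pass the test, and neither did bta-miR-147 or bta-miR-155. In plasma none of the 4 passed. The study itself, using DESeq2, listed bta-miR-146a and bta-miR-147 as lower on HG in leucocytes at an adjusted p below 0.05. Its plasma list held none of the 4. Values per library are adjusted counts in CPM, the scale of the test, and folds are HG over FD.

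In leucocytes bta-miR-146a had 1541, 1615 and 2395 CPM on FD in cows 1, 3 and 4 and 1114, 824 and 1143 CPM on HG. It was lower on HG in 3 of 3 cows, at 0.723-, 0.510- and 0.477-fold, and the diets did not overlap. Of the 779 names tested, 19.1% were lower on HG in every cow and 6.03% also did so without overlap of the diets. The log2 fold change was -0.84 (SE 0.140, edgeR quasi-likelihood test with cow as a block, adjusted p = 0.0112), against a median of -0.02 over all names. Of all names, 1.80% were called (14 of 779, 3 higher and 11 lower, the latter 1.41%), and 5 names had a smaller p than bta-miR-146a. The 779 include bovine and human names of identical counts. With such names taken once, edgeR called 5 of 672 (0.744%), and bta-miR-146a had an adjusted p of 0.0366. With bovine names alone its adjusted p was 0.0459. DESeq2, the tool of the study, gave -0.83 (SE 0.155, adjusted p = 8.55e-06). The call was lost without the block on cow (-0.85, adjusted p = 0.712, a fit that called none of the names by edgeR, with 45 at an unadjusted p under 0.05) and without cow 3 (-0.73, adjusted p = 0.990, none called and 25 at an unadjusted p under 0.05).

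bta-miR-146b in leucocytes had 69.8, 83.3 and 136 CPM on FD and 82.8, 107 and 144 on HG. It was slightly higher on HG in 3 of 3 cows, at 1.19-, 1.28- and 1.06-fold, as were 19.6% of all names, but the diets overlapped and cow 4 had the highest level on both. The log2 fold change was 0.23 (SE 0.145, adjusted p = 0.516), with a 95% interval of -0.09 to 0.55.

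The ratio of the pair needs no scaling between libraries, but it depends on how reads that matched both miRNAs were divided. With each read counted once, the leucocytes of cows 1, 3 and 4 held 11.0, 9.70 and 8.78 miR-146a reads per miR-146b read on FD and 6.73, 3.86 and 3.97 on HG. The ratio was lower on HG in 3 of 3 cows and the diets did not overlap. On the log2 scale the change was -1.06 ± 0.32 (SD, n = 3 cows) in the adjusted counts, with p = 0.250 in an exact two-sided sign-flip test, which is the smallest p that 3 cows allow. In plasma the ratio was 8.13, 8.54, 15.2 and 2.74 on FD in cows 1 to 4 and 2.96, 1.91, 2.86 and 5.46 on HG. It was lower on HG in 3 of 4 cows and higher in cow 4, with a mean change of -1.26 ± 1.55 on the log2 scale (SD, n = 4 cows, exact two-sided sign-flip test p = 0.250, smallest possible 0.125). The reads shared by the pair varied between plasma libraries. bta-miR-146b kept 49.5%, 49.2%, 49.6% and 39.8% of its plasma reads on FD in cows 1 to 4. On HG it kept 38.4%, 41.2%, 48.6% and 43.2%, and in leucocytes 45.9% to 48.5%. A ratio without the shared reads was not formed, and their part in these changes was not tested.

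**Figure D2:**
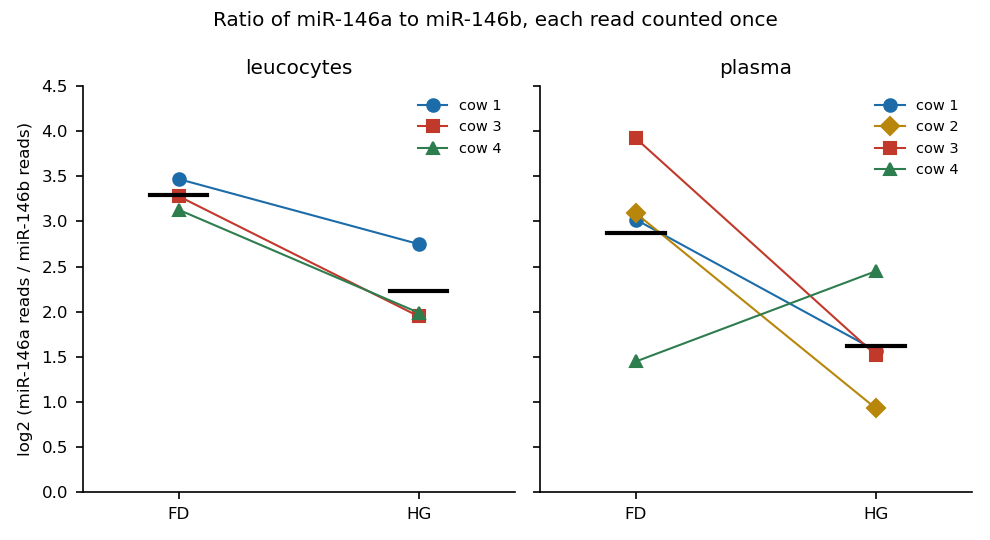
The log2 ratio of miR-146a reads to miR-146b reads, each read counted once (y axis), on FD and HG (x axis) in leucocytes (left, 3 cows) and plasma (right, 4 cows). Reads that matched both miRNAs were divided between them. Each line is a cow and the black bars are group means: in leucocytes all 3 lines go down, and in plasma 3 go down and that of cow 4 goes up.

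bta-miR-147 in leucocytes had 14.9, 15.4 and 6.25 CPM on FD in cows 1, 3 and 4 and 5.83, 7.17 and 5.17 on HG. It was lower on HG in 3 of 3 cows, at 0.391-, 0.467- and 0.828-fold, and the diets overlapped because cow 4 was already low on FD. The log2 fold change was -0.93 (SE 0.241, adjusted p = 0.0930) and did not pass the test, although 20 of 779 names alone had a smaller p. This value includes the FD library of cow 1, whose adjusted count kept nearly all of its reads. With both names summed the folds were 0.704, 0.467 and 0.929, and the log2 fold change was -0.58 (SE 0.210, adjusted p = 0.244). Undivided reads gave the same -0.58 (adjusted p = 0.228). In the adjusted counts the threshold was passed with DESeq2 (-0.93, adjusted p = 0.0291), with no filter on low counts (-0.99, adjusted p = 0.0292), with at least 10 reads required in every library (-0.98, adjusted p = 7.28e-04) and without cow 4 (-1.23, adjusted p = 1.52e-09). The fit without cow 4 called 111 names, against 14 with all cows.

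**Figure D3:**
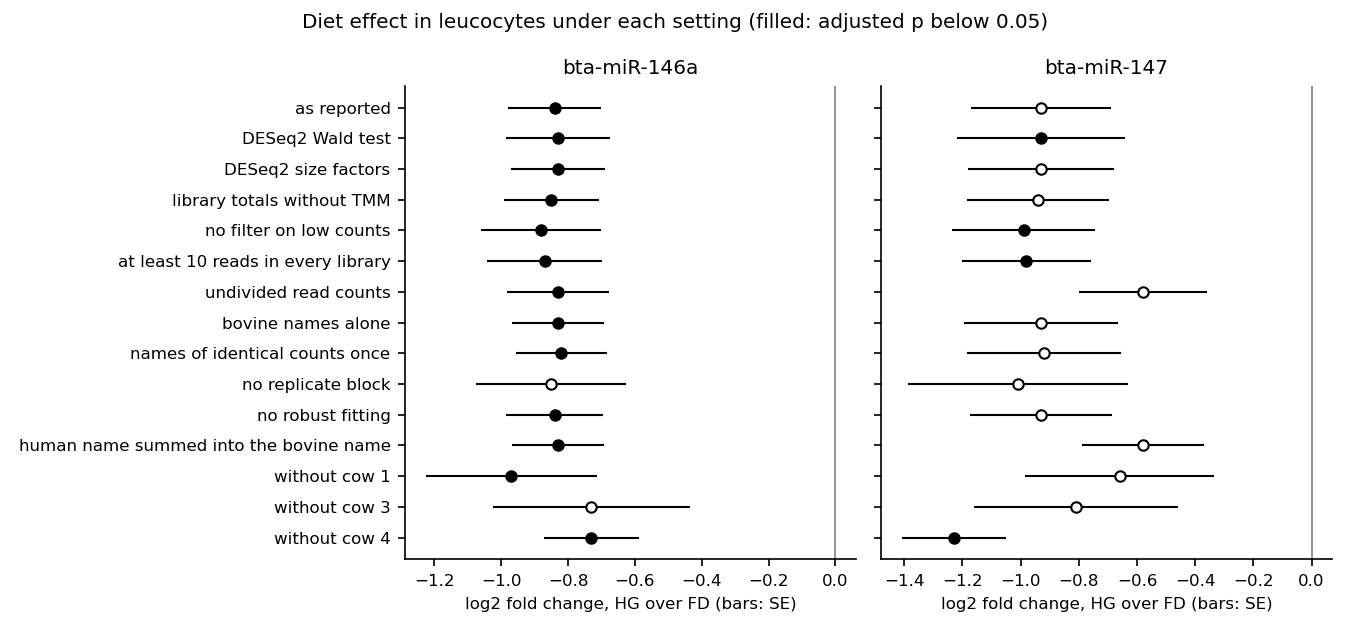
Log2 fold change, HG over FD, of bta-miR-146a (left) and bta-miR-147 (right) in leucocytes (x axis) under each way of processing the counts (y axis), with bars for the SE and filled symbols for an adjusted p below 0.05. bta-miR-146a lies between -0.97 and -0.73 and is open without the replicate block and without cow 3, while bta-miR-147 is near -0.58 with undivided reads and with the human name summed.

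bta-miR-155 in leucocytes had 230, 266 and 323 CPM on FD and 239, 218 and 229 on HG. Cow 1 was nearly level at 1.04-fold, cows 3 and 4 were at 0.818- and 0.708-fold, and the HG libraries lay within a narrower range than the FD ones. The log2 fold change was -0.24 (SE 0.147, adjusted p = 0.491), with a 95% interval of -0.57 to 0.08.

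Marker miRNAs of blood cells moved as well in these libraries, and their part in the fall of bta-miR-146a was not tested. Among the erythroid miRNAs, bta-miR-144 fell by 0.86 on the log2 scale (adjusted p = 0.0352, but 0.509 with DESeq2), while bta-miR-451 gave 0.32 (adjusted p = 0.639) and bta-miR-486 0.42 (adjusted p = 0.191), and their sum was 154081 to 279768 CPM on FD and 222902 to 304180 on HG. By cow the sum was at 1.03-, 0.910- and 1.97-fold in cows 1, 3 and 4. In the HG library of cow 4, undivided reads summed to 39722104 and adjusted counts to 23508577.6. In that of cow 1 they summed to 92928263 and 46679674.7, so reads were divided less in cow 4. The part of this in the erythroid values was not tested. Of the miR-142 pair, which all blood cells express, bta-miR-142-3p fell by 0.61 on the log2 scale (adjusted p = 0.0352) and bta-miR-142-5p gave -0.46 (adjusted p = 0.273), with sums of 7863 to 18160 CPM on FD and 4679 to 16478 on HG. The lymphocyte and myeloid markers did not pass the test (0 of 3 names by edgeR, 0 at an unadjusted p under 0.05 and 0 by DESeq2), at 7669 to 15439 CPM on FD and 9849 to 10245 on HG for the lymphocyte pair and at 5054 to 6654 and 5086 to 7729 for bta-miR-223. The platelet and endothelium miRNAs summed to 1141 to 1655 CPM on FD and 1430 to 1823 on HG and the epithelial ones to 123 to 683 and 154 to 350, with 0 of 7 names called by edgeR (2 at an unadjusted p under 0.05) and 0 by DESeq2, while the epithelial marker miR-203 was not analysed here. Most of the platelet and endothelium sum was bta-miR-199a-3p, with means of 1286 CPM on FD and 1578 on HG (0.32, adjusted p = 0.222). The other names of that list went lower, bta-miR-126-5p at -0.56 (adjusted p = 0.222) and bta-miR-126-3p at -0.36 (adjusted p = 0.439).

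Plasma libraries were matched to cows by the authors' numbering, and those of the same cow deviated together no more than those of different cows (correlations of -0.222 to 0.160 against -0.267 to 0.326), which touches every fold by cow in plasma. In plasma bta-miR-146a had 1892, 1094, 1783 and 1847 CPM on FD in cows 1 to 4 and 648, 953, 896 and 913 on HG. On this scale it was lower on HG in 4 of 4 cows, at 0.343-, 0.871-, 0.503- and 0.494-fold, and the diets did not overlap, with cow 2 the lowest on FD. Of the 536 names tested, 2.61% were lower on HG in every cow and 0.373% (2 names) without overlap of the diets. In RPM without TMM scaling the diets overlapped, at 706 to 1944 on FD and 430 to 1001 on HG, cow 2 was higher on HG at 1.33-fold, and none of the names (0%) was lower on HG without overlap. The log2 fold change was -0.94 (SE 0.464, adjusted p = 0.559) and did not pass the test, with a median of 0.26 over all names. With library totals it was -0.51 (adjusted p = 0.847) and the median 0.64, so that the distance from the median was -1.20 and -1.15. Of its reads, bta-miR-146a kept 99.7%, 99.6%, 99.9% and 84.3% on FD in cows 1 to 4. On HG it kept 83.0%, 81.6%, 98.0% and 94.6%. Undivided reads gave a log2 fold change of -0.73 (SE 0.579, adjusted p = 0.915), with a median of 0.48 over all names. In RPM of undivided reads cow 2 was higher on HG at 1.62-fold and cow 3 was level. Cows 1 and 4 were lower, at 0.266- and 0.691-fold. The part of the shared reads in the plasma values was not tested. On the CPM scale the erythroid miRNAs also were lower on HG in 4 of 4 cows, at 0.530- to 0.994-fold, with sums of 78603 to 144848 CPM on FD and 43311 to 89319 on HG and 0 of 3 names called by edgeR (1 at an unadjusted p under 0.05) or DESeq2, and their part in the values of bta-miR-146a was not tested. The other marker lists overlapped between the diets and were higher on HG in 1 or 2 of 4 cows, with 0 of 12 names called by either tool and 0 at an unadjusted p under 0.05.

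No name was called in plasma by edgeR (0% of 536, with 46 or 8.58% at an unadjusted p under 0.05), and DESeq2 called 10, none of them a member. The other members varied several-fold between cows on the same diet. bta-miR-146b had 116, 64.0, 58.7 and 337 CPM on FD in cows 1 to 4 and 110, 250, 157 and 83.7 on HG. It was higher on HG in cows 2 and 3 and lower in cows 1 and 4, with a log2 fold change of 0.38 (SE 0.944, adjusted p = 0.957) and a 95% interval of -1.78 to 2.53.

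bta-miR-147 in plasma had 20.7, 762, 173 and 200 CPM on FD and 137, 39.6, 37.1 and 73.7 on HG. It was lower on HG in cows 2, 3 and 4, at 0.0520-, 0.214- and 0.368-fold, and higher in cow 1, at 6.62-fold, and the diets overlapped. The extremes rest on few reads or on few distinct sequences. The FD library of cow 1 held 17 reads of bta-miR-147, and the 1403 reads in the FD library of cow 2 came from 6 distinct sequences, where the 26 bovine names of a read count within 1.5-fold of it in that library had a median of 15. The log2 fold change was -1.58 (SE 1.30, adjusted p = 0.931), and it was -0.38 without cow 2 (adjusted p = 0.994) and -2.61 without cow 1 (adjusted p = 0.273). bta-miR-155 in plasma had 109, 57.5, 509 and 1251 CPM on FD and 619, 275, 129 and 367 on HG. It was higher on HG in cows 1 and 2 at 5.70- and 4.78-fold and lower in cows 3 and 4 at 0.253- and 0.293-fold, for a log2 fold change of 0.24 (SE 1.13, adjusted p = 0.960) that turned to -0.71 without cow 1, to -0.46 without cow 2 and to -0.47 without the block.

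**Figure D4:**
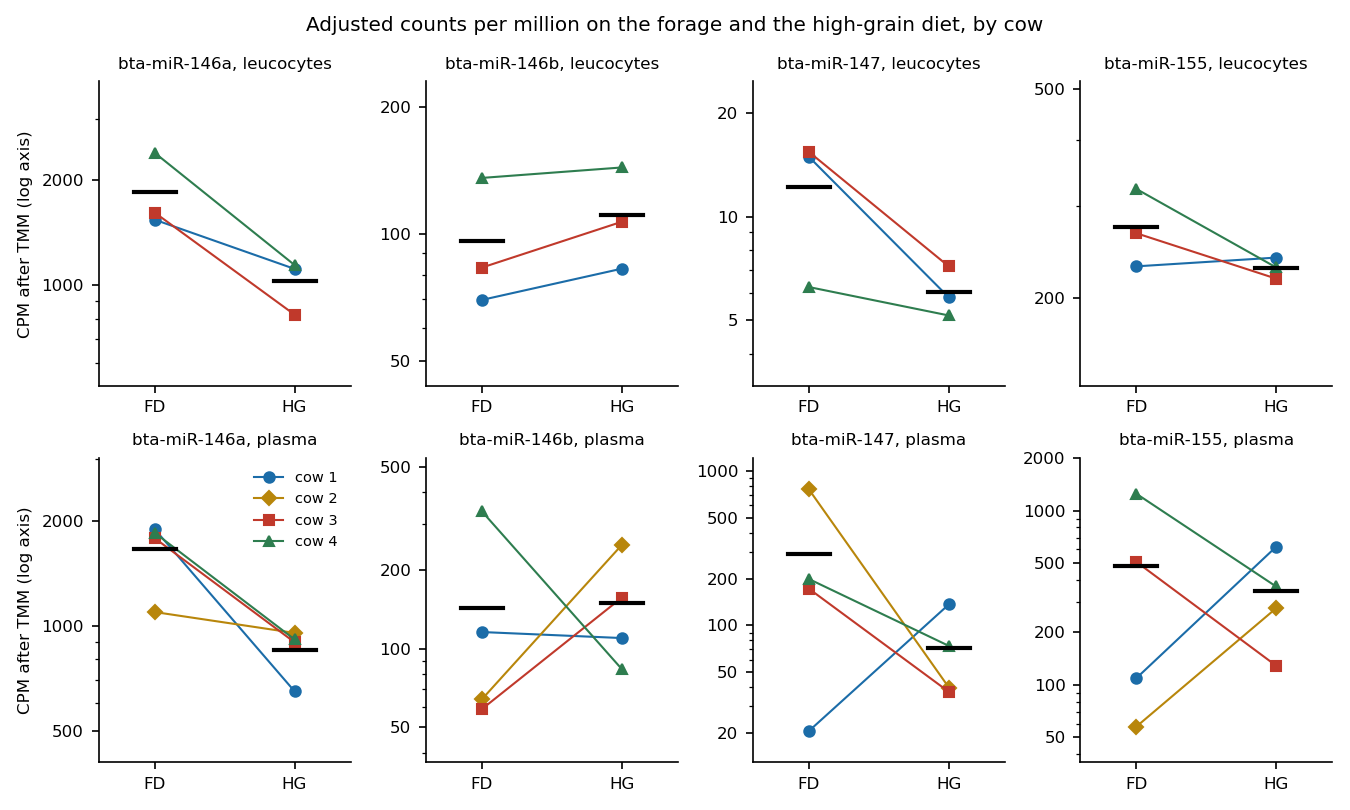
Adjusted counts in CPM after TMM scaling (y axes, log scale, each panel with its own range) of the 4 miRNAs on FD and HG (x axes) in leucocytes (top) and plasma (bottom). Each line is a cow and the black bars are group means: bta-miR-146a is lower on HG in every cow in both rows (in RPM without TMM scaling, plasma of cow 2 is higher), while the plasma lines of the other miRNAs cross.

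Whether the diet effect differed between plasma and leucocytes was tested as an interaction over all 14 libraries. None of 797 names was called by edgeR (0%, 58 at an unadjusted p under 0.05). The difference, plasma minus leucocytes, was -0.24 (SE 0.465) for bta-miR-146a, -0.04 (SE 0.892) for bta-miR-146b, -0.54 (SE 1.35) for bta-miR-147 and 0.32 (SE 1.06) for bta-miR-155 on the log2 scale, with an adjusted p of 1 each. The standard errors leave room for a difference of 2-fold or more in either direction for miR-146b, miR-147 and miR-155.

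Other miRNAs known from inflammatory signalling, from a list of 22 miRNAs, gave the setting for these values. Of these, 20 were analysed here, under 22 bovine names. In leucocytes 0 of 22 names passed the test by edgeR, 0 by DESeq2 and 5 had an unadjusted p under 0.05, against 116 of 779 names in all (14.9%). The median log2 fold change was -0.12, next to -0.02 for all names. bta-miR-21-5p, induced in many inflamed tissues, had a value of -0.44 (SE 0.115, adjusted p = 0.0930) and bta-miR-152 of -0.42 (SE 0.161, adjusted p = 0.222). At the other end stood bta-miR-187, an IL-10-induced miRNA, with 1.16 (SE 0.563, adjusted p = 0.388) at under 1 CPM, and bta-miR-221 with 0.29 (SE 0.120, adjusted p = 0.273).

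In plasma 0 of 22 names passed by edgeR, 0 by DESeq2 and 0 had an unadjusted p under 0.05, with a median of -0.03 next to 0.26 for all names. The lowest values were those of bta-miR-98, a let-7 family member, at -0.63 (SE 0.649, adjusted p = 0.947), and of bta-miR-99b at -0.52 (SE 0.683, adjusted p = 0.947). bta-miR-187 and bta-miR-212 had the highest fitted values but no reads on FD in any cow, and on HG bta-miR-187 had 2 reads in cow 3 and 29 in cow 4 and bta-miR-212 had 10 in cow 4, so that no fold is given.

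**Figure D5:**
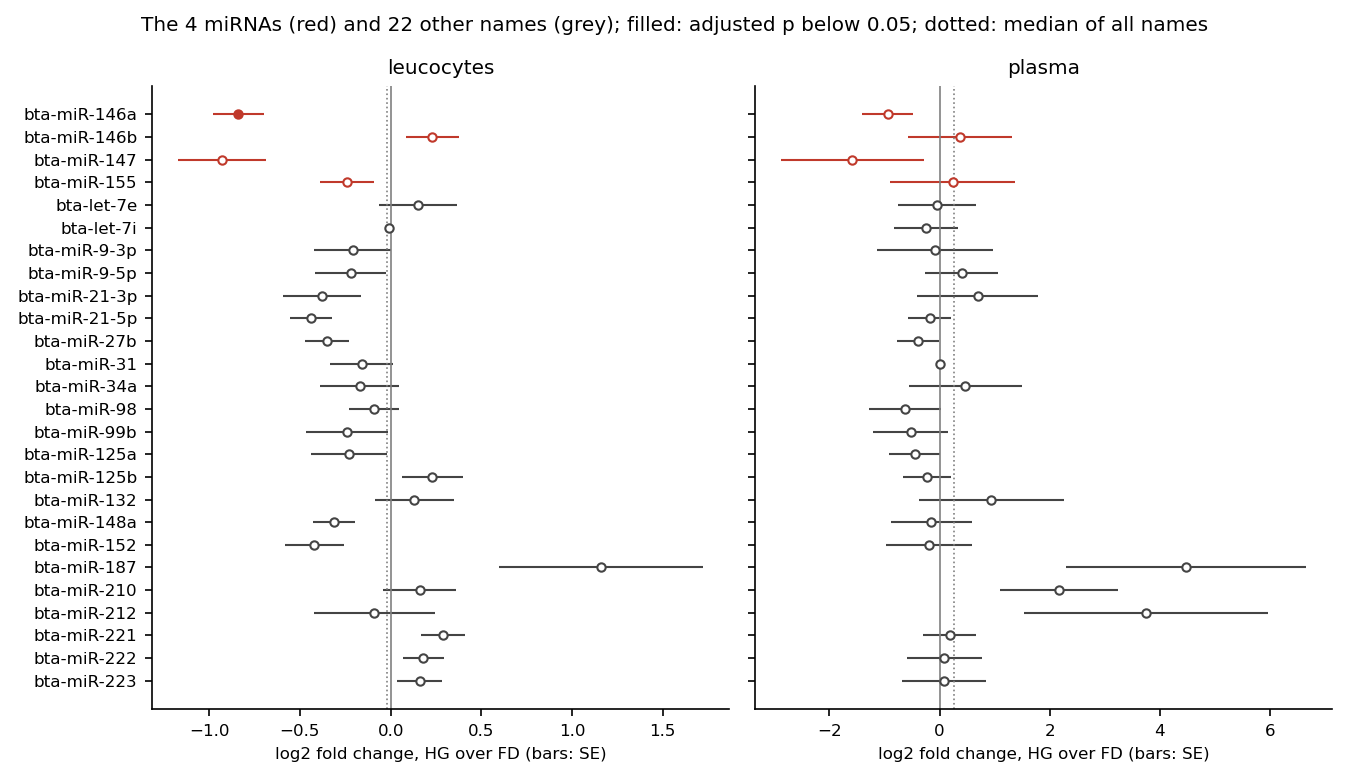
Log2 fold change, HG over FD (x axes), with bars for the SE, of the 4 miRNAs (red) and of 22 other names known from inflammatory signalling (grey) in leucocytes (left) and plasma (right, wider axis). bta-miR-146a in leucocytes, at -0.84, is the only filled symbol (adjusted p below 0.05), and the plasma values of bta-miR-187 and bta-miR-212, which had no reads on FD, depend on the count that the fit adds.

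The bovine names whose profile was most like each member were found from the root mean square difference in log2 CPM, centred on each name's mean, among names with at least 10 reads in every library (387 in leucocytes, 182 in plasma). The 6 or 8 libraries share cows, and the measure is a description. In leucocytes bta-miR-146a was nearest to bta-miR-29b (0.190), bta-miR-27a-3p (0.211) and bta-miR-2411-5p (0.248), against a median of 0.560 over all names compared. Of these, bta-miR-27a-3p was itself called lower on HG (-0.64, adjusted p = 0.0356). bta-miR-146b was nearest to bta-miR-193a-5p (0.0982), bta-miR-125b (0.127) and bta-miR-2903 (0.172), bta-miR-147 to bta-miR-499 (0.238), bta-miR-32 (0.273) and bta-miR-218 (0.287), and bta-miR-155 to bta-miR-9-3p (0.0654), bta-miR-23a (0.0889) and bta-miR-30b-3p (0.101). The profile of bta-miR-147 includes the FD library of cow 1, whose adjusted count kept 98.9% of its reads. Its neighbours were not sought with both names summed. In plasma the differences were larger. The nearest name was bta-miR-660 for bta-miR-146a (0.391), bta-miR-369-3p for bta-miR-146b (0.288), bta-miR-29c for bta-miR-147 (0.655) and bta-miR-2478 for bta-miR-155 (0.486), where bta-miR-147 itself had 8.5 adjusted reads in the FD library of cow 1. No name was among the nearest 3 of the same miRNA in both sample types.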

How the data were processed

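Small RNA of plasma and leucocytes was sequenced and the authors mapped the reads with sRNAbench to bovine and human miRBase names on UMD3.1. The deposited files give, per name, the count of distinct sequences, the read count, in which a read counts in full at each name, and the expected count, in which it is divided among them. The deposited RPM (reads per 1000000 miRNA reads) gave the library totals. The other deposited RPM columns, treated as a score, and the authors' normalized tables were not used.

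Expected counts were rounded and tested with edgeR 4.0.16 in R 4.3.3 (quasi-likelihood, robust, TMM, cow plus diet, at least 10 reads in total) over all names of a sample type, with Benjamini-Hochberg adjustment at 0.05. SEs were derived from the F statistic, and 95% intervals from the SE and the t distribution at the degrees of freedom of the fit. These degrees of freedom (11.1 in leucocytes, 7.72 to 8.51 in plasma) include information shared across names. The block takes out differences in level between cows, so the intervals do not measure that spread. The changes by cow of bta-miR-146a in leucocytes had an SD of 0.32 on the log2 scale (n = 3 cows). Fits of both sample types added sample type, or its interaction with diet. The script was tested on simulated data. Alternatives were DESeq2 1.42.0, other scalings, filters, counts and names, no block, and each cow left out.

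Samples were grouped by the labels. Cows were matched across diets by the letters in the leucocyte labels and by the authors' numbering for plasma, where 504 of 504 values equal the numbered table. Deviations from the diet means correlated at 0.434 to 0.651 between libraries of a cow in leucocytes and at -0.222 to 0.160 in plasma, where libraries of different cows gave -0.267 to 0.326.

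Named were the 4 miRNAs, their human names, names of the lists past the threshold or else the 2 largest and 2 smallest log2 fold changes, and the 3 nearest profiles. The members and lists were chosen with earlier results of these data known. The RPM that 3 reads correspond to covers counting error only.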

Additional observations from a re-analysis of the deposited data

Results flagged for a closer look

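Of 10 groups of 4 plasma libraries checked for a library apart from the others (each member on each diet, and the ratio of bta-miR-146a to bta-miR-146b), 1 was picked out, where chance gives about 1 in 20. In the FD plasma libraries, bta-miR-146a had 1094 CPM in cow 2 against 1783 to 1892 in the other cows, a gap of 0.863 of the range against a critical value of 0.829. The FD mean in CPM that the HG libraries are set against therefore includes 1 lower library. Without cow 2 the log2 fold change was -1.06 (edgeR, adjusted p = 0.895). The flag depends on the scaling. In RPM without TMM scaling the FD values of cows 1 to 4 were 1944, 706, 1020 and 937, with cow 1 farthest from the others.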

How the results depend on the processing

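In leucocytes bta-miR-146a kept its direction in all 14 alternatives (-0.97 to -0.73 when a cow was left out) and its call in 12 of them. Without the replicate block the call was lost (-0.85) and the count of names called fell from 14 to 0. bta-miR-147 passed the threshold with the DESeq2 Wald test (-0.93), with no filter (-0.99) and with at least 10 reads in every library (-0.98), and lay between -1.23 and -0.66 when a cow was left out. bta-miR-146b (0.18 to 0.30) and bta-miR-155 (-0.35 to -0.12) kept direction and side in all 14. The count of leucocyte names called was 28 with DESeq2, 9 with its size factors, 23 with at least 10 reads in every library, 5 with bovine names alone, 5 with identical names once, 7 with no robust fitting, 9 with the human names summed (an alternative chosen after seeing the data), and 0 to 111 when a cow was left out. In plasma it was 10 with DESeq2. Without the block bta-miR-155 in plasma reversed to -0.47, and the block changed no other call.

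When a cow was left out, plasma bta-miR-146b reached from -0.13 to 1.0, bta-miR-147 from -2.61 to -0.38 and bta-miR-155 from -0.71 to 1.19. The plasma minus leucocyte difference in the diet effect reversed with library totals for bta-miR-146a (0.32) and bta-miR-146b (0.50), with undivided reads for bta-miR-146b (0.09), and in cows 1, 3 and 4 alone for bta-miR-147 (0.55) and bta-miR-155 (-0.22). Between sample types, library totals gave -0.10 for bta-miR-146a, 0.47 for bta-miR-146b and 0.69 for bta-miR-155, and bta-miR-146b was no longer called with undivided reads (-0.44) or summed names (-0.54). Leaving out a cow gave -1.63 to -0.88 for bta-miR-146a, -1.14 to -0.45 for bta-miR-146b, 2.13 to 2.85 for bta-miR-147 and -0.82 to 0.13 for bta-miR-155. The causes were not tested. bta-miR-147 had no value in plasma with at least 10 reads in every library.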
